A study of Mus musculus with 9 samples.

Results

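St3gal5 and 6 neighbouring genes of glycosphingolipid metabolism (St3gal2, St3gal3, Ugcg, B4galt5, B4galt6 and Neu3) were followed in mouse tibialis anterior, a fast muscle of the lower leg. These 7 genes were taken by symbol from 14971 protein-coding genes in the deposited tables, and all 7 were present in both tables. St3gal5 was chosen by its response to orchiectomy and dihydrotestosterone in these same libraries, so its values and fold changes are a description and carry no test. The other 6 genes were chosen as its neighbours in the pathway, with earlier results of these data known.

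The study measured polyA RNA in 9 libraries taken 4 weeks after treatment, with 3 libraries for each of 3 groups of mice, all male and all C57BL/6J. Control mice kept their testes (the tables call these columns sham), ORX mice were orchiectomised, and ORX+DHT mice were orchiectomised and given dihydrotestosterone (DHT), a potent androgen. No group carried a transgene or a deleted gene per the labels. The dose and route of DHT and the age of the mice are not given in the sources used here. The labels call the libraries biological replicates but do not say that each came from a separate mouse, so p-values measure the spread between these libraries.

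Gangliosides are glycosphingolipids that carry sialic acid. They are built on ceramide, which UGCG turns into glucosylceramide and the galactosyltransferases B4GALT5 and B4GALT6 then turn into lactosylceramide. ST3GAL5, GM3 synthase, adds the first sialic acid and makes GM3, the major ganglioside of skeletal muscle and a lipid known to associate with the insulin receptor in the membrane. ST3GAL2 and ST3GAL3 belong to the same sialyltransferase family but add sialic acid to other acceptors: ST3GAL2 to longer gangliosides, giving GD1a and GT1b, and ST3GAL3 mainly to glycoproteins. NEU3 is a plasma membrane sialidase that removes sialic acid from gangliosides.

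The promoters of St3gal5, the gene that followed androgen, and of St3gal3, a family member of comparable read number with no call in any comparison, are shown because the androgen receptor acts through DNA. Each run is the 250 bases before the RefSeq start of the gene in GRCm38.p6, 5′ to 3′ on the gene's own strand, at chr6:72097358-72097607 (plus strand) and chr4:118134947-118135196 (minus strand). Capitals mark the GC box GGGCGG and the CCAAT box, each searched on both strands.
St3gal5: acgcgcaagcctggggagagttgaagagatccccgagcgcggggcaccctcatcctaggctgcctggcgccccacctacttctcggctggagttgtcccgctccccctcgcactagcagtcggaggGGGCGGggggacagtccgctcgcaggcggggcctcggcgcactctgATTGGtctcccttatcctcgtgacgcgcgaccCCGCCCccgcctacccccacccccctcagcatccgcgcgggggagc
St3gal3: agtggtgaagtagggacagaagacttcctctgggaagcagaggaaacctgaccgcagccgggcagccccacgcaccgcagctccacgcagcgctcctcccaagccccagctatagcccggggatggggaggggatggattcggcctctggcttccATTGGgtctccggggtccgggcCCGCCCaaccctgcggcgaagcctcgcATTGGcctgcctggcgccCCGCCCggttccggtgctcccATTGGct

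The St3gal5 window was 71.6% G or C, with 2 GC boxes and 1 CCAAT box. The St3gal3 window was 68.4% G or C, with 2 GC boxes and 3 CCAAT boxes. The androgen receptor half-site AGAACA, searched on both strands, was in neither window, nor was the TATA box TATAAA. RefSeq promoters were matched for 5 of the 7 genes, and none of these 5 windows held the half-site: the windows of Ugcg (80.4% G or C), B4galt5 (73.2%) and Neu3 (49.2%) held 2, 7 and 1 GC boxes. Over all 32851 promoter windows of this length, 16.1% held the half-site, 32.7% the GC box, 33.9% the CCAAT box and 12.4% the TATA box, and the median G or C content was 52.4%. The full palindromic site, the half-site followed by its mirror image after a spacer of 3 bases, was in 3 of those windows. A missing match says only that these letters are not in the window. Gene positions given below come from GENCODE, whose gene starts can differ from the RefSeq starts. The St3gal5 and B4galt5 windows reach past their GENCODE gene starts, and the Ugcg window lies wholly past its own.

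Each library held between 1340209 and 1682235 recovered reads. Control library 1 stood apart from the other 8 on the first principal component, which held 30.7% of the variance (score -47.2 against 0.715 to 10.6). Results that use the control group are therefore given with and without it where they differ. All 6 fibre markers of fast muscle searched were listed, at a summed 195300 to 288900 normalised counts per library. In bulk RNA, fewer cells of a type and less RNA per cell cannot be told apart.

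Printed values are normalised counts with all 9 libraries on 1 joint scale. Fold changes are differences of log2(value + 1), a scale that understates the change of low genes. For ORX+DHT against control they were fitted on the joint scale. For the other comparisons they were fitted on the deposited scale of the groups compared, which differs from the joint scale by a factor per library. A gene was called at a limma adjusted p under 0.05 over all genes with a mean of at least 10. Of the 7 genes, 5 reached that mean in each comparison. B4galt6 and Neu3 did not, and were tested only in the setting without a minimum mean. Each of the 3 comparisons shares a group with each of the others, the first and second sharing the ORX libraries, so they are not independent.

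St3gal5 (ENSMUSG00000056091, GRCm38 chr6:72097592-72154571, plus strand) stood at 147.3, 152.6 and 133.1 normalised counts in control libraries 1 to 3. It stood at 61.84, 67.38 and 61.21 in ORX libraries and at 207.7, 205.9 and 200.6 in ORX+DHT libraries. Every ORX library was below every control library, every ORX+DHT library was above every control library, and no pair of groups overlapped. The mean was 144 ± 10.1 for control muscle, 63.5 ± 3.39 after orchiectomy and 205 ± 3.72 with DHT (SD, n = 3). The difference of ORX from control was -1.17 on the log2 scale (SE 0.16), with a 95% interval of -1.52 to -0.83. The difference of ORX+DHT from ORX was 1.68 (SE 0.11, 95% interval 1.44 to 1.92), a 3.2-fold higher level. Muscle given DHT was also above muscle with intact testes, by 0.50 on the log2 scale (SE 0.14, 95% interval 0.20 to 0.81). The intervals are not adjusted for the number of genes tested. No test is drawn from them, because St3gal5 was chosen by its response. Over all 18 settings of the analysis the 3 differences ran from -1.23 to -1.07, from 1.56 to 1.72 and from 0.45 to 0.55. St3gal5 has 2618 annotated exon bases, none of which overlap another gene. The reads behind these values numbered 63 to 213 per library.

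**Figure D1:**
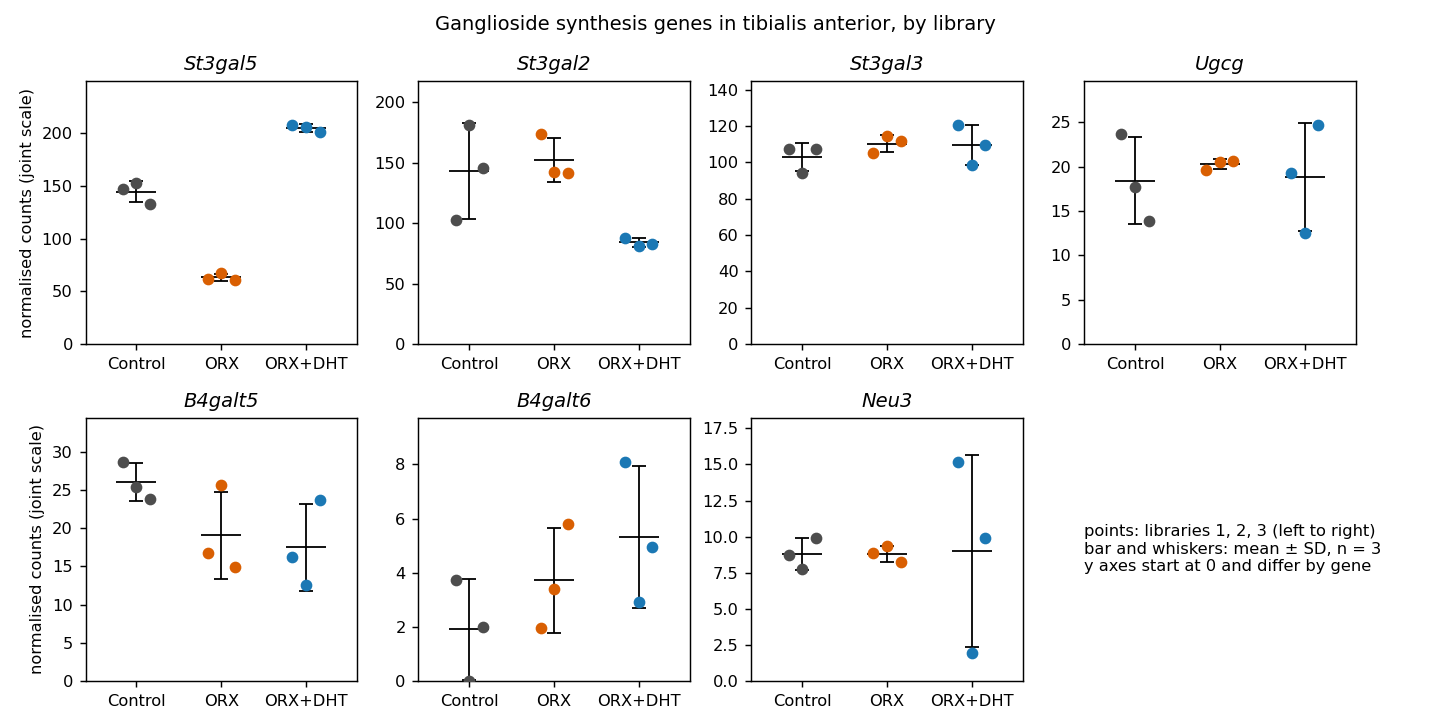
Normalised counts on the joint scale (y axes, which start at 0 and differ by gene) of the 7 genes in control, ORX and ORX+DHT muscle (x axes), with 1 point per library and the mean ± SD (n = 3). St3gal5 lies between 61.21 and 67.38 after orchiectomy and between 200.6 and 207.7 with DHT, and St3gal2 is at 88.16 or lower in all 3 ORX+DHT libraries.

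St3gal2 went the other way under DHT. This gene (ENSMUSG00000031749, GRCm38 chr8:110919922-110972480, plus strand) stood at 102.4, 181.3 and 146 normalised counts in control, 173.7, 142.4 and 141.4 in ORX, and 88.16, 81.21 and 83 in ORX+DHT libraries. The 3 ORX+DHT libraries lay below all 6 others, while control and ORX libraries overlapped. St3gal2 fell by 0.85 on the log2 scale in ORX+DHT against ORX (SE 0.12, 95% interval -1.10 to -0.59, limma adjusted p 0.000265), a 1.8-fold lower level. This call held in all 18 settings, with a highest adjusted p of 0.0337 in the limma fit of all 9 libraries. Orchiectomy alone gave no call: the log2 difference was 0.12 (95% interval -0.33 to 0.58, limma adjusted p 0.913) and changed sign to -0.10 without control library 1.

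Against control, St3gal2 in ORX+DHT muscle differed by -0.72 (95% interval -1.17 to -0.28) with no overlap between groups, and the limma adjusted p was 0.66. Control library 1 decided that call. Without it the difference was -0.94 and the limma adjusted p 0.00215. In that fit, limma calls over all 8595 genes also rose, from 3 to 66. The control mean of 143 ± 39.5 had the widest spread of the 3 groups, against 152 ± 18.4 after orchiectomy and 84.1 ± 3.61 with DHT (SD, n = 3).

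St3gal3 (ENSMUSG00000028538, GRCm38 chr4:117932154-118134914, minus strand) stood at 107.4, 93.98 and 107.3 normalised counts in control, 105, 114.3 and 111.7 in ORX, and 120.6, 98.61 and 109.7 in ORX+DHT libraries. The 3 groups overlapped throughout. The log2 difference of ORX+DHT from ORX was -0.01 with a 95% interval of -0.27 to 0.24 (limma adjusted p 0.979). Both ends of that interval are smaller than the differences measured for St3gal5 and St3gal2. ORX against control gave 0.10 (95% interval -0.24 to 0.44, limma adjusted p 0.9), and ORX+DHT against control gave 0.09 (95% interval -0.26 to 0.44, limma adjusted p 0.9).

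The enzymes upstream of GM3 were expressed at lower read numbers, and none of them was called. Ugcg, the enzyme of the first step (ENSMUSG00000028381, GRCm38 chr4:59189257-59222833, plus strand), stood at 23.72, 17.69 and 13.9 normalised counts in control, 19.63, 20.47 and 20.68 in ORX, and 19.25, 12.57 and 24.7 in ORX+DHT libraries. The ORX values lay inside the range of both other groups. The log2 difference of ORX+DHT from ORX was -0.15 (95% interval -0.71 to 0.41, limma adjusted p 0.86). For ORX against control it was 0.16 (95% interval -0.42 to 0.74, limma adjusted p 0.911). Ugcg had 13 to 25 reads per library, and these intervals are the precision that such counts gave.

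B4galt5 (ENSMUSG00000017929, GRCm38 chr2:167298444-167349183, minus strand) stood at 28.72, 25.43 and 23.84 normalised counts in control, 16.69, 25.59 and 14.89 in ORX, and 16.21, 12.57 and 23.71 in ORX+DHT libraries. Control libraries were above all ORX+DHT libraries and above 2 of the 3 ORX libraries. The log2 difference from control was -0.46 in ORX (95% interval -1.04 to 0.11, limma adjusted p 0.731) and -0.59 in ORX+DHT muscle (95% interval -1.19 to 0.02, limma adjusted p 0.736). ORX+DHT differed from ORX by -0.12 (95% interval -0.73 to 0.49, limma adjusted p 0.897).

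B4galt6, the other lactosylceramide synthase (ENSMUSG00000056124, chromosome 18), was near the detection floor. It had 3, 0 and 2 reads in control, 2, 4 and 7 in ORX, and 8, 3 and 5 in ORX+DHT libraries. A count of 0 allows up to 3 reads. With no minimum mean B4galt6 was not called in any comparison (limma adjusted p 0.807 to 0.817). Neu3 (ENSMUSG00000035239, GRCm38 chr7:99811439-99828417, minus strand) had 7, 7 and 10 reads in control, 9, 11 and 10 in ORX, and 15, 2 and 10 in ORX+DHT libraries. The ORX+DHT group held both the highest and the lowest Neu3 value, and its range covered the other groups. With no minimum mean Neu3 was not called either (limma adjusted p 0.847 to 0.999).

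St3gal2 was the one neighbour called by limma in any of the 3 comparisons. In ORX+DHT against ORX, 1 of the 4 (St3gal2) was called by limma, and edgeR and DESeq2 also called 1 each. Of all 8770 genes tested there, 4.08% were called, 2.38% higher and 1.7% lower. In ORX against control, limma called 0 of the 4 neighbours, 0 had an unadjusted p under 0.05, and edgeR and DESeq2 called 0. The share over all 8631 genes there was 0.0579%. In ORX+DHT against control, limma called 0 of the 4, 1 (St3gal2) had an unadjusted p under 0.05, and edgeR and DESeq2 called 0, against 0.0349% of all 8595 genes.

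Groups that did not overlap were more common than calls. Counting St3gal5, which was chosen on this property, the groups separated for 1 of the 5 tested genes in ORX against control, for 2 in ORX+DHT against ORX and for 3 in ORX+DHT against control. The shares over all genes were 14.3%, 19.5% and 14%. Nothing is read from these counts for St3gal5.

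**Figure D2:**
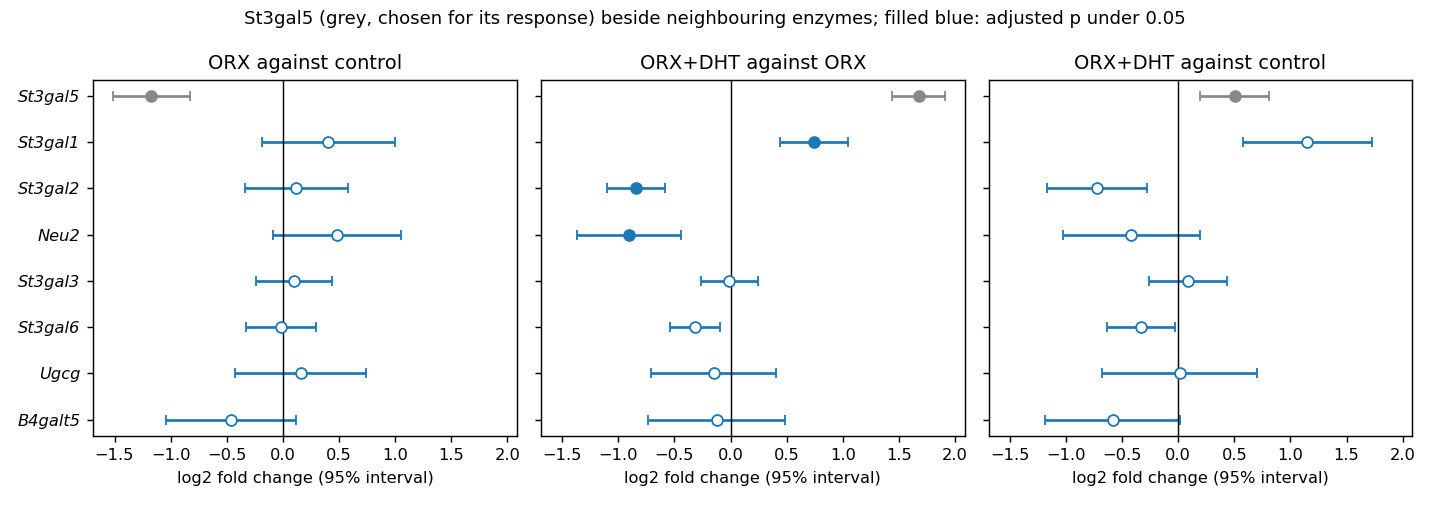
Log2 fold changes (x axes) with 95% intervals of St3gal5, drawn in grey because it was chosen for its response, and of neighbouring enzymes (y axis) in the 3 comparisons (panels). In the middle panel St3gal1 lies at 0.75, St3gal2 at -0.85 and Neu2 at -0.90 (filled, adjusted p under 0.05), while St3gal3, Ugcg and B4galt5 have intervals across 0.

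Per kb of annotated exon, the order of the 7 genes depended on the group. In control muscle St3gal5 led at 55.1 ± 3.85 normalised counts per kb, followed by St3gal3 at 37.2 ± 2.78 and St3gal2 at 28.4 ± 7.85 (SD, n = 3). In ORX muscle St3gal3 led at 39.9 ± 1.72, followed by St3gal2 at 30.3 ± 3.64 and St3gal5 at 24.3 ± 1.30 per kb. In ORX+DHT muscle St3gal5 led again at 78.2 ± 1.42, above St3gal3 at 39.6 ± 3.97 and St3gal2 at 16.7 ± 0.716 per kb. The other 4 genes were lower in every group, between 0.329 per kb for B4galt6 in control and 6.03 per kb for B4galt5 in control. B4galt5 and Ugcg, neighbours in this order, did not differ beyond their spread in ORX (4.42 ± 1.33 and 3.89 ± 0.106 per kb) or in ORX+DHT muscle (4.06 ± 1.32 and 3.61 ± 1.17 per kb). The per kb levels use every annotated exon base, whichever transcript the muscle makes.

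The ratio of St3gal5 to St3gal2 in normalised counts, without division by length, sets these 2 genes against each other within each library. It was 1.44, 0.842 and 0.912 in control, 0.356, 0.473 and 0.433 in ORX, and 2.36, 2.54 and 2.42 in ORX+DHT libraries. No groups overlapped. Between control and ORX libraries St3gal2 itself overlapped, while in ORX+DHT libraries St3gal5 was higher and St3gal2 lower than in ORX. Because St3gal5 was chosen by its response, the ratio is a description.

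Within the family of 6 St3gal sialyltransferases (St3gal1 to St3gal6), the shares of transcripts are a description, because St3gal5 was chosen by its response. The St3gal5 share of the summed per kb level was 33.0 ± 2.64% for control muscle, 17.0 ± 0.806% after orchiectomy and 43.6 ± 1.01% with DHT (SD, n = 3). St3gal2 made up 16.8 ± 3.86%, 21.3 ± 2.79% and 9.30 ± 0.132%. The 6 genes together reached 158.6 to 175.5 normalised counts per kb in the controls, 140.6 to 143.4 after orchiectomy and 176 to 185.9 with DHT. Shares add to a fixed total, so a rise of St3gal5 lowers the share of every other gene even where its level does not move, as for St3gal3 (28.0% in ORX, 22.1% in ORX+DHT muscle).

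**Figure D3:**
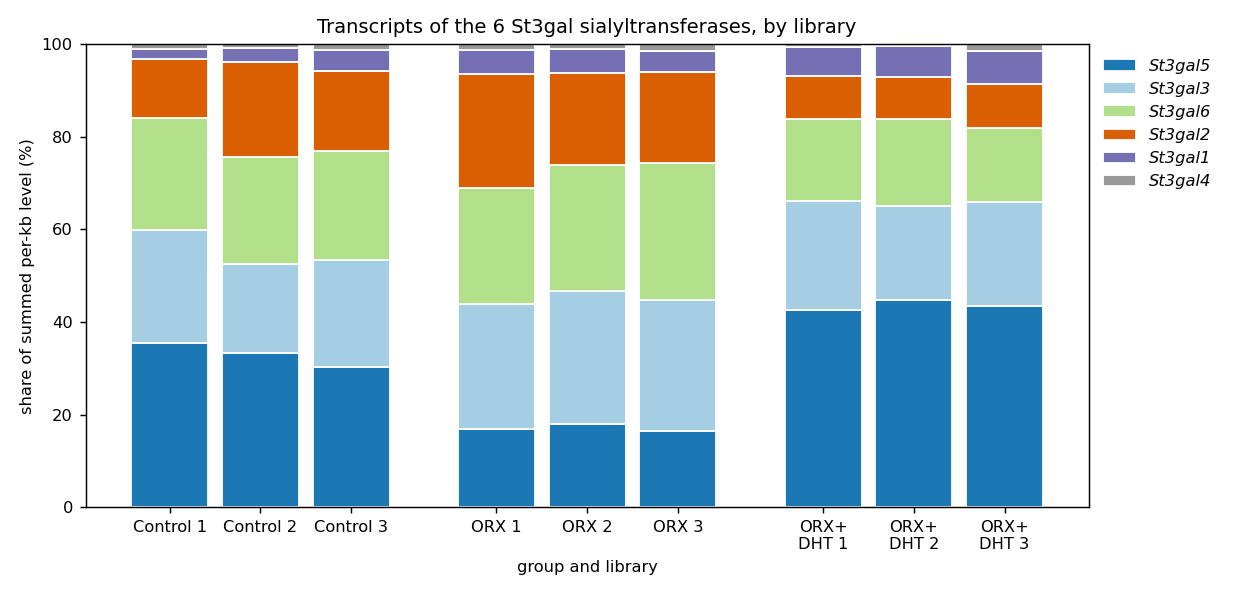
Share of each St3gal gene in the summed per kb level of the 6 genes (y axis, percent) in each of the 9 libraries (x axis). The St3gal5 share lies between 16.4% and 17.9% after orchiectomy and between 42.7% and 44.7% with DHT, and the St3gal2 share is 9.16% to 9.41% in ORX+DHT libraries.

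The wider pathway was read from 7 lists of 70 genes, of which 64 were in either table. The lists, too, were chosen with earlier results of these data known. In ORX+DHT against ORX, 41 of the 70 were tested, 1 was called higher and 1 lower, which is 4.88% of those tested beside 4.08% of all genes. The share of calls in the pathway was thus near the background. The median log2 difference was -0.04 over these 41 genes and 0.01 over all genes tested. In ORX against control, limma called 0 of 39 tested genes, with 1 at an unadjusted p under 0.05 and 0 called by edgeR and DESeq2. In ORX+DHT against control, limma called 0 of 37, with 3 at an unadjusted p under 0.05 and 0 called by edgeR and DESeq2.

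St3gal1, a sialyltransferase of O-glycans that can also act on gangliosides, was the gene called higher. It lies at GRCm38 chr15:67102875-67176830 (minus strand) and stood at 23.72, 37.59 and 53.63 normalised counts in control, 51.04, 52.03 and 43.01 in ORX, and 78.03, 81.21 and 86.95 in ORX+DHT libraries. All ORX+DHT libraries were above all others, and control library 1 was the lowest of the 9. St3gal1 rose by 0.75 on the log2 scale in ORX+DHT against ORX (SE 0.14, 95% interval 0.44 to 1.05, limma adjusted p 0.00432). The call was lost with all 9 libraries in 1 limma fit (adjusted p 0.225) and held in the other 17 settings. Against control the difference was 1.15 (limma adjusted p 0.379). Without control library 1 that difference was 0.85 and the limma adjusted p 0.0356, in the fit that called 66 of all 8595 genes. St3gal1 and St3gal2 are known to act on the same kind of terminal galactose, and their ratio in normalised counts averaged 0.269 ± 0.0862 for control muscle, 0.321 ± 0.0386 after orchiectomy and 0.978 ± 0.0836 with DHT (SD, n = 3). Both genes were called in ORX+DHT against ORX, in opposite directions, so this ratio restates those calls and is a description.

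Neu2, a cytosolic sialidase, was the gene called lower. It lies at GRCm38 chr1:87509889-87597845 (plus strand) and stood at 18.73, 34.28 and 22.84 normalised counts in control, 37.3, 38.38 and 28.95 in ORX, and 20.27, 15.47 and 18.77 in ORX+DHT libraries. ORX libraries were all above ORX+DHT libraries, and control libraries spanned part of both ranges. Neu2 fell by 0.90 on the log2 scale in ORX+DHT against ORX (SE 0.22, 95% interval -1.37 to -0.44, limma adjusted p 0.023). The limma call was lost without ORX library 1 (adjusted p 0.0901), ORX library 2 (0.137) or ORX+DHT library 2 (0.09), with all 9 libraries in 1 fit (0.12) and with DESeq2 (0.154). Its exons share 123 bases with Ngef on the opposite strand, and the strand setting of the counting is not given in the sources used here.

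The other lists held no called gene in ORX+DHT against ORX. Of ceramide supply, 9 of 12 genes were tested, from Cers5 at -0.72 (limma adjusted p 0.438) to Cers1 at 0.85 (limma adjusted p 0.139). Cers1 is known as the main ceramide synthase of muscle. In these libraries Cers2 RNA was higher, at a mean of 12.1 normalised counts per kb against 4.57 for Cers1. Cers1 shares 1349 exon bases with Gdf1 on the same strand, out of 3171 in all, and how the counting treated reads on the shared bases is not given in the sources used here. Sialic acid and sugar nucleotide supply had 8 of 11 genes tested, from Ugdh at -0.35 to Gne, the first enzyme of sialic acid synthesis, at 0.63 (limma adjusted p 0.321). Glycolipid transfer had 4 of 5 tested, from Gltp at -0.23 to Plekha8 at 0.33. Of the 8 other sialyltransferases 3 were tested, from St3gal6 at -0.31 (limma adjusted p 0.127) to St8sia4 at 0.32. St3gal6 shares 1603 exon bases with Dcbld2 on the opposite strand.

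The 2 lists with a call were otherwise spread on both sides of 0. Ganglioside elongation had 4 of 10 genes tested, from St6galnac6 at -0.32 (limma adjusted p 0.283) to St3gal1. Breakdown had 13 of 17 tested with a median log2 difference of -0.20, from Neu2 to the lysosomal sialidase Neu1 at 0.35 (limma adjusted p 0.664). Of the elongation list, 3 enzymes of the early steps beyond lactosylceramide and GM3 were close to the floor. B4galnt1, which starts the ganglio series, had 0 to 2 reads per library, St8sia1, which makes GD3, had 0 to 2, and B3galt4, which adds the next galactose, had 1 to 5. St6galnac3 and St6galnac5 had at most 6 reads in any library. The other listed enzymes of the group had more, St8sia5 38 to 64, St6galnac4 29 to 55 and St6galnac6 59 to 97 per library, beside St3gal1. None of the 7 genes for other glycosphingolipid branches reached the mean of 10 needed for the test.

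**Figure D4:**
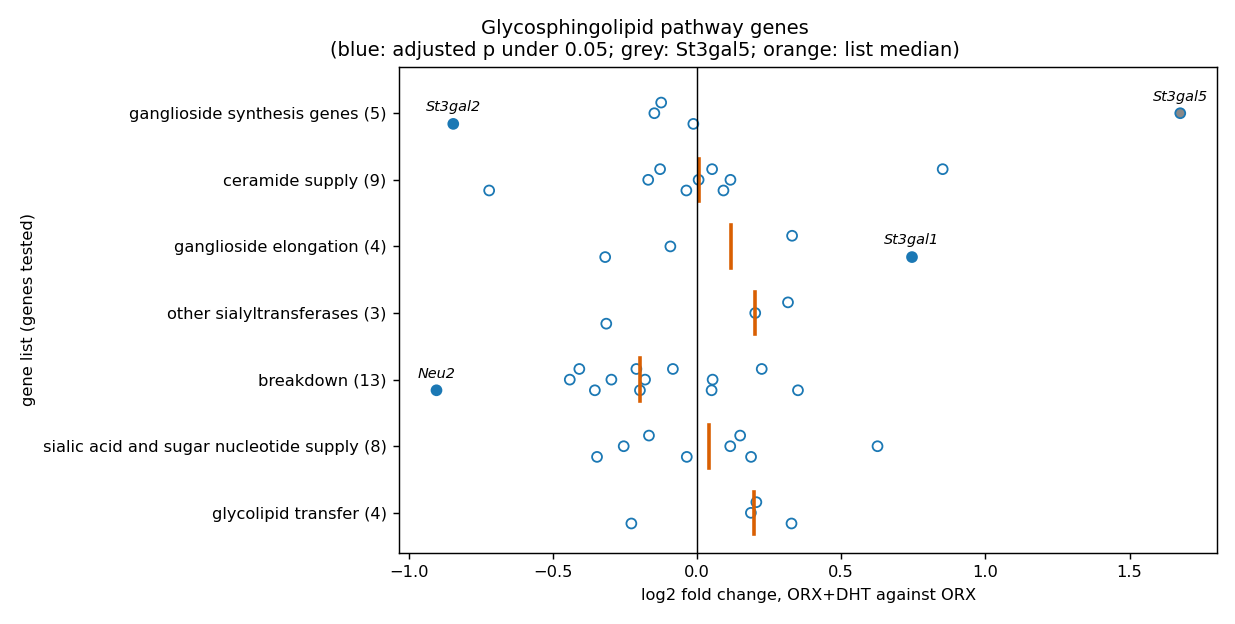
Log2 fold change of ORX+DHT against ORX (x axis) for each tested gene of the ganglioside synthesis genes and 6 pathway lists (y axis, number tested in parentheses), with the list median as an orange bar for the pathway lists. St3gal2, St3gal1 and Neu2 are filled (adjusted p under 0.05), St3gal5 at 1.68 is grey, and the other points are spread on both sides of 0.

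The genes most like St3gal5 were ranked by Pearson's r of log2 values over the 9 libraries among 8629 genes. These r are a description, since all genes share the same libraries and group means dominate. The 8 highest were Amd1 (0.989), Cdk19 (0.985), Slc38a4 (0.981), Rab12 (0.981), Cacna2d4 (0.974), Kcng4 (0.973), Amd2 (0.972) and Smtnl2 (0.970). Amd1 and Amd2 are near-identical copies, so how reads were split between them is uncertain. The lowest were Aebp1 (-0.965), Klhl33 (-0.957) and Gstm2 (-0.953). Among the neighbours, r with St3gal5 was -0.71 for St3gal2, -0.16 for St3gal3, -0.21 for Ugcg and 0.04 for B4galt5.

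Summed marker levels of some cell types moved in the same comparison as St3gal5 and St3gal2. Such a sum follows its most abundant markers most. The summed level of 5 fibroblast markers ranged from 1347 to 2684 among controls, from 2820 to 3799 after orchiectomy and from 1701 to 2417 with DHT. The sum of 5 tendon markers was 329.5 to 429.5, 445.6 to 732.9 and 308.1 to 377.5 in the same order, and that of 5 Schwann cell markers 98.4 to 100.3, 136.5 to 158 and 92.2 to 129.5. These 3 sums were lower in ORX+DHT than in ORX libraries without overlap, like St3gal2 and Neu2. Called lower were 1 of 5 fibroblast, 1 of 5 tendon and 0 of 5 Schwann cell markers. Over all single genes tested in ORX+DHT against ORX, groups did not overlap for 19.5%, with 1.7% called lower and 2.38% higher. The sums of 6 muscle fibre markers and of 5 smooth muscle and pericyte markers were higher in ORX+DHT than in ORX without overlap, like St3gal5 and St3gal1. For fibres the sums were 239400 to 288900 among controls, 195300 to 208400 after orchiectomy and 218200 to 237400 with DHT, with 2 of 6 markers called higher. For smooth muscle and pericytes they were 1006 to 1115, 1106 to 1184 and 1280 to 1302, with 0 of 5 markers called. The fibre sum was also lower in ORX than in control libraries without overlap, as St3gal5 was. With DHT its highest library, at 237400, was close to the lowest control library, at 239400. The sizes were unlike: St3gal5 itself stood at 61.21 to 67.38 after orchiectomy and at 200.6 to 207.7 with DHT. The fibroblast, tendon and Schwann cell sums were higher in ORX than in control libraries without overlap, whereas St3gal2 and Neu2 overlapped there. Markers of endothelium, macrophages, adipocytes, satellite cells and blood overlapped between these groups. No marker searched was absent from the tables. The part of these cells in the St3gal results was not tested.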

How the data were processed

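Per the submitters' processing notes, the tools were Trim Galore 0.6.7, HISAT2 2.2.1, featureCounts 2.0.1 and DESeq2 1.36.0 with the build GRCm38. The annotation and the strand setting are not given in the sources used here. The authors deposited 2 tables of normalised counts (a signal, each library's counts divided by a factor), scaled separately: control with ORX (14596 genes) and ORX with ORX+DHT (14675 genes). Sham columns were taken as control by replicate number, and 0 columns were unmapped. In each column 100% of values were whole multiples of 1 read (tolerance 0.01 reads), so reads were recovered. For 1 control library that step was close to 1 and could not be told from rounding by a separate check of the unit.

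The tests used limma 3.58.1 under R 4.3.3 (lmFit, eBayes with trend), taking log2(value + 1) of all genes whose mean was at least 10, with Benjamini-Hochberg adjustment over all genes tested. ORX+DHT against control used both tables after joint median-of-ratios rescaling of all 9 libraries, the scale of the printed values. Count tests on the recovered reads called 6 (edgeR 4.0.16, quasi-likelihood) and 28 (DESeq2 1.42.0) genes for orchiectomy against control, 366 and 224 for DHT against orchiectomy alone, and 4 and 13 for DHT against control. The fits were tested on simulated data. Exon lengths and overlaps came from GENCODE M21, promoters from RefSeq.

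Named were the 7 genes, every called gene of the 7 pathway lists, the largest rise and fall of each list in ORX+DHT against ORX, and the 8 genes most like and 3 most unlike St3gal5. The genes and lists were chosen with earlier results of these data known. Reads had no molecular identifiers, so they are not independent molecules and the floor for a count of 0 covers counting error only.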

Additional observations from a re-analysis of the deposited data

How the results depend on the processing

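The settings tried were pseudocounts of 0.1 and 10, testing every listed gene or only those with a mean of 50, TMM or quantile scaling, robust eBayes, a joint fit of all 9 libraries, a replicate block, edgeR, DESeq2 and each library left out in turn. Of 457 alternative values of the 28 tested fold changes other than those of St3gal5, 437 kept their direction and their side of the threshold, 12 changed sign, 6 lost a call and 2 gained one. St3gal5 kept its direction in all its settings. The counts of calls moved more. ORX against control (5 genes called by limma) gave 16 with no filter, 23 with all 9 libraries in 1 fit, 28 with DESeq2, and 1 to 51 with 1 library left out (51 without control 1, 21 without control 3, 1 without ORX 1 or ORX 2, 2 without ORX 3). ORX+DHT against ORX (358) gave 123 in 1 fit, 224 with DESeq2, and 223 to 350 with 1 library left out (223 without ORX+DHT 1). ORX+DHT against control (3) gave 6 with quantile normalisation, 11 in 1 fit, 13 with DESeq2, and 0 to 66 with 1 library left out (66 without control 1, 1 without control 3 or ORX+DHT 1, and 0 without ORX+DHT 3, where 318 genes had an unadjusted p under 0.05). The cause was not tested.

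With the replicate block, ORX+DHT against ORX gave 571 calls. Libraries of the same number deviated together with correlations of 0.0627, 0.0611 and 0.151 there, not all over 0.1, so the numbers were not taken as pairs. Each library correlated best with its own number in that comparison, a hint from the data only.

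The pathway count in ORX+DHT against ORX (2 genes), whose alternatives were chosen after seeing the data, was 1 with a minimum mean of 50, with DESeq2 and without ORX 1, ORX 2 or ORX+DHT 2, and 0 in 1 fit. Ugcg in ORX+DHT against control changed sign with quantile normalisation (-0.028), and with 1 library left out it ran from -0.20 to 0.26. Left-out ranges also crossed 0 for St3gal2 (-0.10 to 0.31) and Ugcg (-0.019 to 0.35) in ORX against control, and for St3gal3 (-0.084 to 0.061), Ugcg (-0.36 to 0.10) and B4galt5 (-0.36 to 0.10) in ORX+DHT against ORX. For Neu3 they crossed 0 in all 3 comparisons: -0.071 to 0.087 in ORX against control, -0.81 to 0.44 in ORX+DHT against ORX and -0.79 to 0.44 in ORX+DHT against control, where ORX+DHT library 2 set the sign of the last 2. Ugcg, B4galt5, B4galt6 and Neu3 had the fewest reads of the 7 genes. The log2 difference of B4galt6 moved to 1.91 (ORX against control) and 2.42 (ORX+DHT against control) with a pseudocount of 0.1. It moved to 0.36 in the latter with 10. In ORX against control a pseudocount of 0.1 moved Ugcg only from 0.16 to 0.17, B4galt5 from -0.46 to -0.48 and Neu3 from 0.0073 to 0.0085. The part of depth was not tested.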
